A study of Mus musculus with 8 samples.

Results

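The TRIM family genes were followed in fully grown mouse oocytes with and without Dicer. Members were taken by name: 58 genes on the arrays have a platform symbol that is Trim followed by a number, 1 of them is not analysed here, and the other 57, of 18193 genes in all, were analysed. Each gene was read from its probe set (the group of array probes that reports 1 transcript region) with the highest mean over all arrays, a choice that made no use of the difference between the groups. The oocytes came from 4 mice labelled wild-type and 4 labelled Dicer knockout, all females of strain 129/C57BL6 primed with eCG, equine chorionic gonadotropin, which makes ovarian follicles grow. They were collected with the germinal vesicle intact, that is, before meiosis resumes, and had been freed of attached cumulus cells with a pipette. RNA of 20 oocytes from each mouse went onto 1 array, so each array stands for 1 animal and for a pool of its oocytes. The age of the mice, the deleted part of the Dicer gene and the Cre driver, if any, are not given in the sources used here. Arrays are numbered 1 to 4 within each group in accession order, and the numbers pair nothing.

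TRIM proteins share an N-terminal tripartite motif of a RING finger, B-boxes and a coiled coil, and most act as E3 ubiquitin ligases, the enzymes that choose which proteins are tagged with ubiquitin. What a member binds is set largely by its C-terminal part, such as a PRY-SPRY domain, a PHD finger with a bromodomain, NHL repeats or a membrane anchor. Many members with a PRY-SPRY domain act in innate immunity and are induced by interferon, and several lie next to each other in the genome. In the oocyte the family is best known for Trim28, a maternally supplied corepressor that KRAB zinc finger proteins bring to DNA, where it keeps imprinted genes methylated and transposons silent in the early embryo. Dicer is the enzyme that makes mature microRNAs and small interfering RNAs out of longer double-stranded RNA.

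Values are deposited log2 signals, on which a difference of 1 is a 2-fold change. The number of arrays limits the precision. Array medians lay between 6.35 and 6.43, and array pairs correlated over probe sets at 0.9915 to 0.9947 within groups and at 0.9797 to 0.9865 between them. Dicer1 itself read higher on the knockout arrays in both probe sets, from a mean of 13.13 to 14.32 and from 11.62 to 12.31, and because the deleted part is not stated these probe sets check nothing about the labels. Wild-type array 1 stood apart from the other wild-type arrays. Among 494 genes that rose at least 2-fold when it was left out, it was the highest wild-type array for 75.9%. The same share for each other wild-type array, among the 411 to 423 genes that rose at least 2-fold without that array, was 10.5% to 14.5%. The count of members that passed and their differences are therefore also given without array 1. Oocyte markers such as Gdf9 and Zp3 were bright on all arrays, and the mean of 11 of them was 13.33 to 13.45 in wild type and 13.25 to 13.32 in the knockout, with 0 higher and 3 lower. Cumulus and granulosa cell markers were lower in the knockout on average, though not all of them passed. Of 16 measured, 9 fell and 0 rose, with a median difference of -0.58, and their mean level was 8.21 to 8.68 in wild type and 7.74 to 8.01 in the knockout. In such pooled RNA, fewer cells of a type and less RNA per cell cannot be told apart. Of 11 macrophage and blood cell markers 2 rose, Cd68 and Itgam, and 0 fell, and their mean was 5.91 to 6.12 in wild type and 6.12 to 6.24 in the knockout. For each of these 3 lists the groups did not overlap. That gives an exact two-sided permutation p of 0.0286, the smallest that 4 against 4 arrays allow. Each list of TRIM-related genes described further below gave the same p, so it does not set the marker lists apart. In the macrophage and blood cell list the groups were apart only by 6.1172 in wild type against 6.1175 in the knockout. The part of these markers in the results on TRIM genes was not tested. The 3′ minus 5′ signal of the control probes, a measure of RNA integrity, was 2.32 ± 0.274 (SD, n = 4) in wild type for actin, against 2.14 ± 0.145 (n = 4) in the knockout (exact permutation p = 0.257), and 2.96 ± 0.0817 and 2.82 ± 0.153 for Gapdh (exact permutation p = 0.143).

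The comparison of wild type with the knockout asks which maternal TRIM transcripts depend on Dicer. In the knockout 8 TRIM genes rose (Trim30a, Trim2, Trim37, Trim23, Trim26, Trim36, Trim56 and Trim40) and 4 fell (Trim59, Trim15, Trim13 and Trim45). A gene is said to have risen or fallen where limma's adjusted p, with Benjamini-Hochberg adjustment over all probe sets, was under 0.05. Members passed about as often as other genes did: 12 of 57 passed, 21.1%, against 21.0% of all genes. The 8 that rose make 14.0% of the members, against 8.18% of all genes, and the 4 that fell make 7.02%, against 12.8%. At 1.5-fold or more, 5 members passed (8.77%, against 10.7% of all genes), 4 of them higher (background 4.56%) and 1 lower (background 6.14%). The median difference over the 57 members was 0.01, against 0.00267 over all genes, and the median size of the difference was 0.12, against 0.16.

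The groups did not overlap for 14 members, 24.6%, against 26.2% of all genes. These were the 12 that passed and Trim14 and Trim65, whose adjusted p in limma was above the threshold. In members as over all genes, calls were more frequent among the brighter. At or above the median probe set signal of 6.40, 11 of 40 members passed, against 27.8% of all such genes. Of the 17 dimmer members only Trim2 passed, and over all genes 3412 of the 3818 that passed lay at or above that level. With every array centred on its own median, 5 members rose and 4 fell, so the higher share of the calls was smaller than in the 8 to 4 split of the deposited values. Without wild-type array 1, 6 members rose and 3 fell, and the calls on Trim26, Trim45 and Trim56 were lost. Leaving out another single array moved the count of risen members by more, to 4 without knockout array 4 and to 5 without wild-type array 2, 3 or 4 or knockout array 1. Without these arrays the risen calls that were lost were those of the smaller changes, Trim26, Trim36, Trim40 and Trim56.

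**Figure D1:**
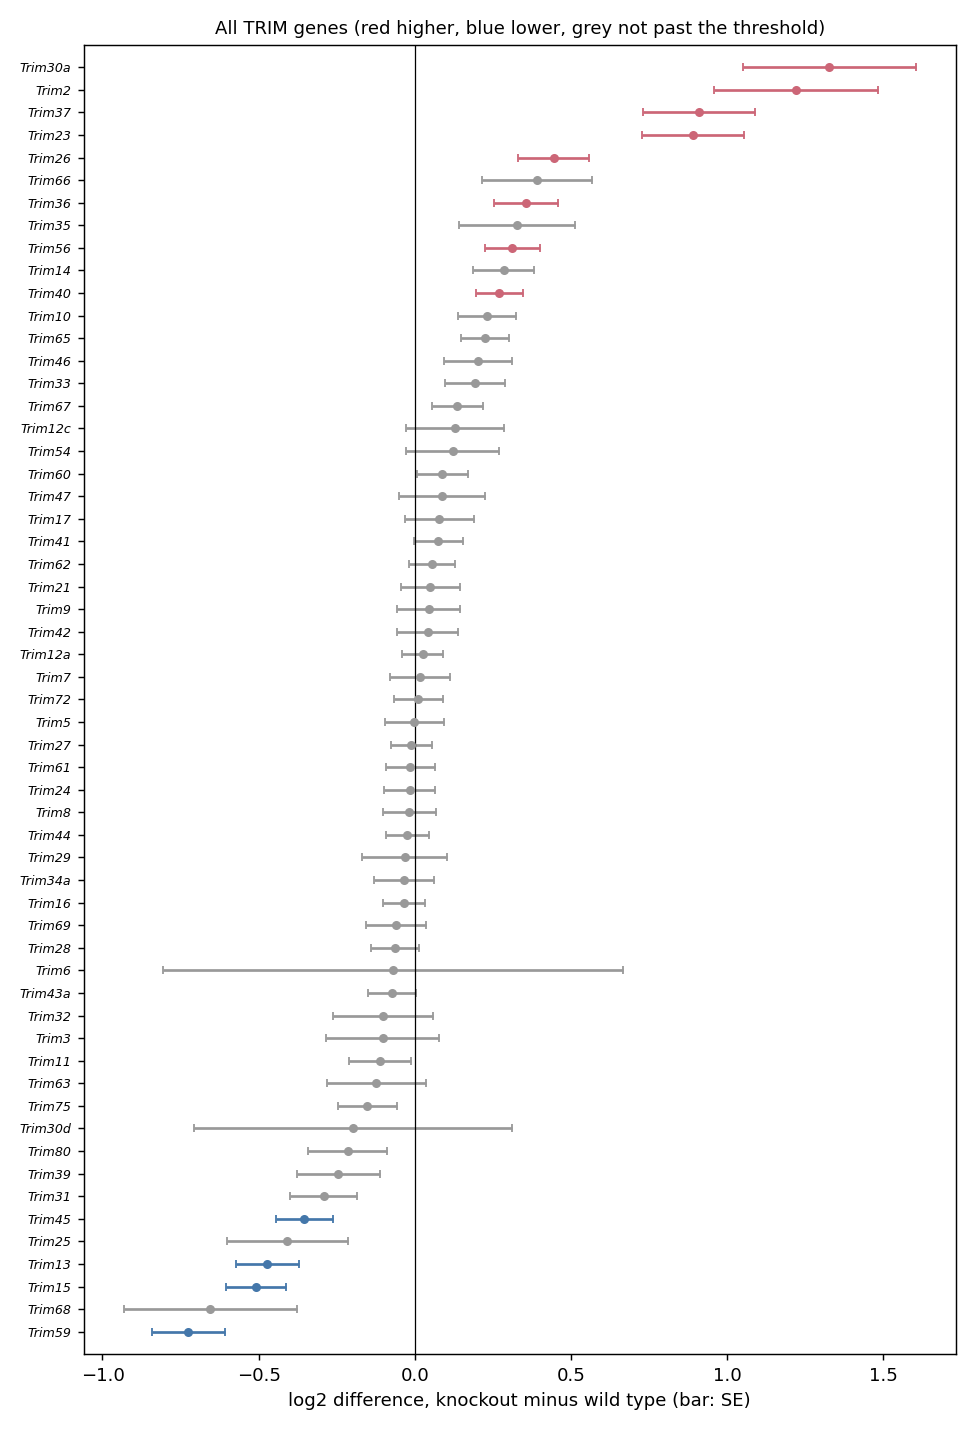
Log2 difference (knockout minus wild type) of the 57 TRIM genes, sorted, with bars for the moderated standard error of limma. Red and blue points passed the threshold (8 higher, 4 lower) and grey points did not. Of the 45 grey points 34 sit within 0.2 of 0, and Trim30a, Trim2, Trim37 and Trim23 stand apart on the right.

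By C-terminal domain, the members that passed were spread over most classes. Each member except Trim80, which was left unclassed and did not pass, was placed in 1 class, and some members of other classes also carry a PRY-SPRY domain. Of the 28 in the PRY-SPRY class 2 rose (Trim26 and Trim30a) and 1 fell (Trim15), with a median difference of 0.01. Of 9 members with no C-terminal domain or no RING finger 2 rose (Trim40 and Trim56). Trim36 rose among 4 members with a microtubule-binding COS box, a fibronectin repeat and a PRY-SPRY domain, and Trim2 rose among 3 with NHL repeats. Both membrane-anchored members, Trim13 and Trim59, fell. The single members with a MATH domain (Trim37) and an ARF domain (Trim23) rose, and the single member with a filamin repeat (Trim45) fell. The 4 members with a PHD finger and bromodomain gave 0 calls in limma, and so did the 2 with a COS box alone and the 1 with a COS box and a fibronectin repeat, with 0 of these 7 at an unadjusted p under 0.05. The classes were assigned from general knowledge of the family and not from the files, the placing of Trim12a and Trim61 is uncertain, and most classes are small, so the counts are a description.

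Trim37 encodes a ligase that keeps centrosome proteins from assembling outside centrosomes, and its loss causes the growth disorder mulibrey nanism. It read 12.17, 11.85, 11.88 and 11.74 on the wild-type arrays and 12.54, 13.26, 13.01 and 12.46 on the knockout arrays. All 4 knockout arrays were above all wild-type arrays, with knockout arrays 2 and 3 the highest. The means were 11.91 ± 0.186 (SD, n = 4) and 12.82 ± 0.383 (n = 4), a difference of 0.91 ± 0.179 (SE) or 1.88-fold (limma adjusted p = 0.00743). Without wild-type array 1 the difference was 0.998.

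Trim23 couples a TRIM ligase to a GTPase domain of the ARF family and is also known as ARD1. Its signals were 7.09, 6.45, 6.69 and 6.41 in wild type against 7.70, 7.24, 7.72 and 7.53 in the knockout. Wild-type array 1 came close to the lowest knockout array, and the groups did not overlap. Trim23 thus went from 6.66 ± 0.310 (SD, n = 4) to 7.55 ± 0.223 (n = 4), by 0.89 ± 0.163 (SE) or 1.85-fold (limma adjusted p = 0.0051), and by 1.03 without wild-type array 1.

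Trim2, a ligase with NHL repeats studied mainly in neurons, where it binds neurofilament light chain, read 5.61, 6.04, 5.21 and 5.47 in wild type. On the knockout arrays it read 7.09, 6.16, 7.39 and 6.58. Knockout array 2 was only just above wild-type array 2, and knockout arrays 1 and 3 were far above all others. The means were 5.58 ± 0.349 (SD, n = 4) and 6.80 ± 0.544 (n = 4), a difference of 1.22 ± 0.263 (SE) or 2.33-fold (limma adjusted p = 0.0118), which was 1.23 without wild-type array 1. The signal lay below the median of all probe sets, and no detection calls were used here, so how far it stood above background is unknown.

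Trim30a, an interferon-induced mouse ligase that restrains signalling from Toll-like receptors, had the largest difference of the family. It read 10.30, 9.94, 9.27 and 8.84 in wild type against 10.86, 11.16, 10.71 and 10.94 in the knockout. The knockout arrays lay close together and above all wild-type arrays, which were spread widely. The means were 9.59 ± 0.657 (SD, n = 4) and 10.92 ± 0.184 (n = 4), a difference of 1.33 ± 0.277 (SE) or 2.51-fold (limma adjusted p = 0.0101). Without wild-type array 1 it was 1.57. Trim30a is also expressed in leukocytes. On the same arrays the macrophage and blood cell markers Cd68 and Itgam rose, by 1.16 and 0.39, the other 9 of the list did not pass, and Ptprc, the common leukocyte marker, read 3.88 in wild type and 3.85 in the knockout. The part of these markers in the rise of Trim30a was not tested.

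Trim26, a ligase that acts on interferon signalling, and Trim36, a microtubule-binding member also known from the sperm acrosome, rose less. Trim26 read 10.15, 10.06, 9.98 and 10.38 in wild type against 10.53, 10.82, 10.40 and 10.61 in the knockout, where knockout array 3 and wild-type array 4 nearly met. Its difference was 0.44 ± 0.114 (SE) or 1.36-fold (limma adjusted p = 0.0263). Trim36 read 11.01, 10.85, 10.62 and 10.93 in wild type against 11.16, 11.06, 11.26 and 11.36 in the knockout, again with groups that nearly met. It differed by 0.36 ± 0.103 (SE) or 1.28-fold (limma adjusted p = 0.0424). The call on Trim26 ended without wild-type array 1, 2 or 3 or knockout array 2 or 4 (limma adjusted p of 0.0533 to 0.071, with differences of 0.37 to 0.45). That on Trim36 ended without wild-type array 2, 3 or 4 or knockout array 1, 3 or 4 (0.066 to 0.109, with differences of 0.28 to 0.38).

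Trim56, a ligase that acts on the cytosolic DNA sensing pathway, and Trim40, a member without a C-terminal domain that acts on NF-kB signalling, had the smallest rises. Trim56 read 7.38, 7.39, 7.24 and 7.40 in wild type against 7.87, 7.52, 7.68 and 7.59 in the knockout, a difference of 0.31 ± 0.0884 (SE) or 1.24-fold (limma adjusted p = 0.0395). Trim40 read 7.93, 7.95, 7.87 and 7.70 in wild type against 8.13, 8.18, 8.09 and 8.13 in the knockout, a difference of 0.27 ± 0.0757 (SE) or 1.21-fold (limma adjusted p = 0.0378). In both genes every knockout array was above every wild-type array. The call on Trim56 was kept when knockout array 2 was left out and ended without any other single array (limma adjusted p of 0.0592 to 0.0945). The call on Trim40 was kept without wild-type array 1 or 2 and ended without each of the others (0.0622 to 0.0889). Without wild-type array 1 the differences of Trim26, Trim36, Trim56 and Trim40 were 0.45, 0.41, 0.32 and 0.29.

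**Figure D2:**
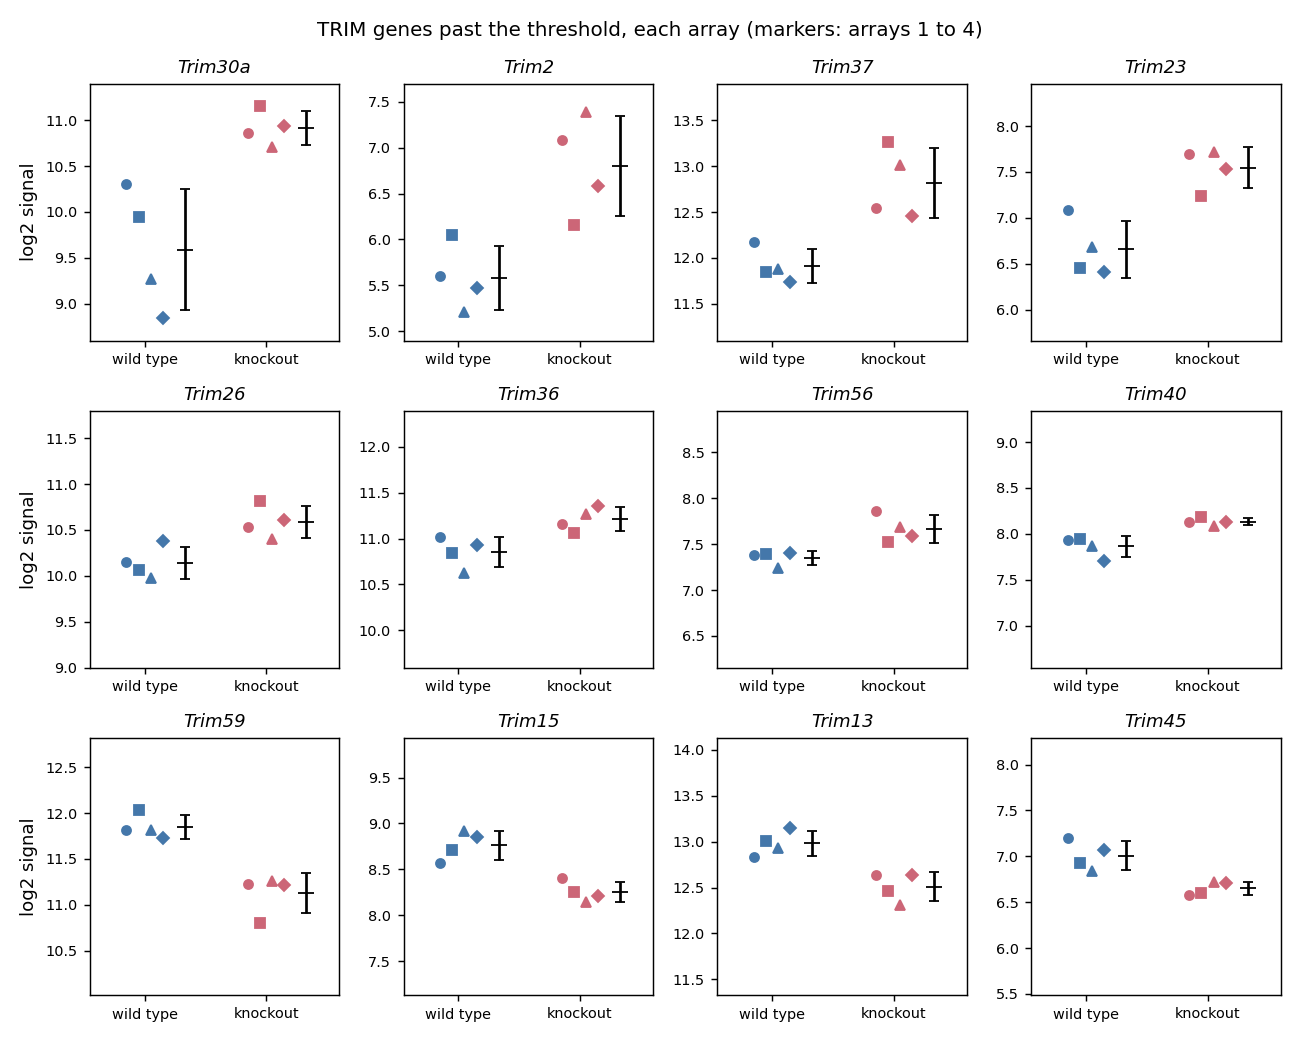
Log2 signal of the 12 TRIM genes that passed the threshold, on each wild-type (blue) and knockout (red) array, with the mean and SD of each group (n = 4) as black bars. Marker shapes give array 1 (circle), 2 (square), 3 (triangle) and 4 (diamond) of each group, and every panel spans the same range, so Trim30a shows the widest step. Groups do not overlap in any panel.

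The 4 members that fell include both that carry a C-terminal membrane anchor. Trim59 had the lowest p of the family. It read 11.82, 12.04, 11.82 and 11.73 in wild type against 11.23, 10.80, 11.26 and 11.22 in the knockout. All knockout arrays were below all wild-type arrays, and knockout array 2 was the lowest. The means were 11.85 ± 0.132 (SD, n = 4) and 11.13 ± 0.219 (n = 4), so that Trim59 fell by 0.72 ± 0.117 (SE), or was 1.65-fold lower (limma adjusted p = 0.00267). It was the only member lower by 1.5-fold or more among those that passed.

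Trim13, a ligase anchored in the endoplasmic reticulum that acts in protein quality control there, read 12.84, 13.01, 12.93 and 13.15 in wild type against 12.63, 12.46, 12.31 and 12.63 in the knockout. The groups were apart, with knockout array 3 the lowest. Trim13 fell by 0.47 ± 0.101 (SE), 1.39-fold (limma adjusted p = 0.0112). Trim15, which is known at focal adhesions, read 8.57, 8.70, 8.92 and 8.85 in wild type against 8.41, 8.25, 8.14 and 8.20 in the knockout. Here wild-type array 1 was the lowest of its group and knockout array 1 the highest of its own. Trim15 fell by 0.51 ± 0.096 (SE), 1.42-fold (limma adjusted p = 0.00608).

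Trim45, a member with a filamin repeat that limits MAP kinase signalling, read 7.20, 6.92, 6.84 and 7.06 in wild type against 6.58, 6.60, 6.72 and 6.70 in the knockout. The groups were close but apart. Trim45 fell by 0.35 ± 0.0903 (SE), 1.28-fold (limma adjusted p = 0.0258). That call ended without wild-type array 1 or 4 or knockout array 1 or 2 (limma adjusted p of 0.0538 to 0.0685, with differences of -0.34 to -0.29). Without wild-type array 1 the differences were -0.74 for Trim59, -0.52 for Trim13, -0.57 for Trim15 and -0.29 for Trim45. Of the 16 cumulus and granulosa cell markers 9 fell on the same arrays, as given above, and the part of these markers in the 4 falls was not tested.

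Array 1 of wild type and array 2 of the knockout share the number 24 in their titles, and array 2 of wild type and array 4 of the knockout share 27, a number whose meaning the labels do not give. Wild-type arrays 3 and 4 share 28. Within each of the pairs across groups all 12 members that passed differed in the same direction as the groups. Since the groups did not overlap for any of these 12, no pair could have differed otherwise. When the title number was fitted as a fixed block, 3 of the 12 calls remained in limma: Trim30a (0.92, adjusted p = 0.0455), Trim37 (0.85, adjusted p = 0.0443) and Trim59 (-0.92, adjusted p = 0.0194). The other 9 had an adjusted p of 0.0986 or more in that fit, in which only the 4 arrays of those pairs inform the difference. Among these 9, the difference was larger than over all arrays for Trim26 (0.61) and Trim45 (-0.41). It was smaller for Trim2 (0.54), Trim23 (0.62), Trim13 (-0.38), Trim15 (-0.41), Trim36 (0.28), Trim40 (0.21) and Trim56 (0.17).

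Trim59 and Trim13 have similar neighbours in the genome. Of the 57 members, 5 had a microRNA gene within 4 genes on the RefSeq gene map of assembly GRCm38.p6 (Trim13, Trim37, Trim46, Trim59 and Trim80), against 17.5% of all genes, and 3 of the 5 passed. The window was chosen after the values were seen. Over all genes, 21.3% of those with such a neighbour passed and 21.0% of those without. Beside Trim59 on chromosome 3 lie Mir15b and Mir16-2, beside Trim13 on chromosome 14 lie Mir15a and Mir16-1, and beside Trim37 on chromosome 11 lies Mir301. Dicer releases a 5p and a 3p arm from each precursor, and RefSeq lists 10 mature entries at these places. The arms printed are those best known as the active strand, with the seed, bases 2 to 8, which pairs with target RNAs, in capitals. The 5p arms next to Trim59 and Trim13 share their seed, while the 3p arms there, not printed, have seeds that differ from it and from each other. Sequences are RefSeq's, 5′ to 3′.
miR-15b-5p: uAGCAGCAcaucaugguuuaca
miR-16-5p: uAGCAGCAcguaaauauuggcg
miR-15a-5p: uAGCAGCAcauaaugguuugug
miR-301a-3p: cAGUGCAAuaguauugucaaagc
The 5p arms of miR-15a, miR-15b and miR-16 have the seed AGCAGCA, and miR-301a-3p has the seed AGUGCAA. The arrays do not measure the mature microRNAs, and no transcript sequences were searched for seed matches.

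Other genes at these places were read in the same way. Smc4, the condensin subunit whose introns hold Mir15b and Mir16-2, fell in 2 of its 3 probe sets, by 0.29 ± 0.0633 (SE, adjusted p = 0.0133 in limma) and 0.30 ± 0.0668 (adjusted p = 0.013), and the remaining probe set read -0.29 with an adjusted p of 0.0791. Kpna4, a nuclear import gene near Trim59, read 0.67 in its brighter probe set (limma adjusted p = 0.169) and 0.09 in the other. Dleu2, the long RNA that holds Mir15a and Mir16-1, had 3 dim probe sets with means of 3.75 to 5.04 and 0 calls, and Spryd7, also beside Trim13, read 0.02. Near Trim37, the phosphatase gene Ppm1e fell by 1.11 ± 0.165 (SE, limma adjusted p = 0.00166). Ska2, a kinetochore gene in which Mir301 lies, rose by 0.59 in the brighter probe set (limma adjusted p = 0.00833) and read -0.19 in the other (adjusted p = 0.317). Rad51c, a recombination gene, fell by 0.45 in its dimmer probe set (limma adjusted p = 0.0157) and read -0.23 in the brighter (adjusted p = 0.054), and Prr11 and Smg8 did not pass. The genes around Trim37 did not all move in the same direction.

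None of the 4 chromatin members, those with a PHD finger and bromodomain, passed in limma, and 0 of the 4 had an unadjusted p under 0.05. Trim28 read 13.70, 13.47, 13.73 and 13.65 in wild type against 13.62, 13.58, 13.58 and 13.52 in the knockout. The groups overlapped, with wild-type array 2 the lowest of all. The difference was -0.06 ± 0.0765 (SE, limma adjusted p = 0.653), and its other probe set read 0.06. Trim24, a coregulator of nuclear receptors, read 12.36, 12.48, 12.39 and 12.60 in wild type against 12.36, 12.58, 12.39 and 12.42 in the knockout, a difference of -0.02 (limma adjusted p = 0.927). Trim33, which binds Smad proteins in signalling by TGF-beta family ligands, read 11.69, 11.54, 11.45 and 11.75 in wild type against 11.71, 11.71, 11.79 and 11.999 in the knockout. Here knockout array 4 stood highest and the groups overlapped, with a difference of 0.19 (limma adjusted p = 0.225). The remaining chromatin member, Trim66, was dim and read 4.39 to 4.91 in wild type and 4.71 to 5.46 in the knockout, a difference of 0.39 (limma adjusted p = 0.177). A p above the threshold does not show that these levels are equal.

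The 4 brightest members without a call were Trim27, Trim28, Trim75 and Trim61. Trim27, a ligase known from germ cells, was among the least variable genes of the arrays in its brightest probe set. There it read 13.58 to 13.73 in wild type and 13.60 to 13.69 in the knockout, a difference of -0.01. Its 6 probe sets gave 0 calls. The bright ones are all of a type whose probes can match other transcripts. Those not of that type were dimmer, with group means of 6.29 to 7.05, and the brightest of these ranged from 6.24 to 7.55 over the arrays. Trim75, Trim60 and Trim61 lie together on chromosome 8, and all 3 were bright. Trim75 read 13.01 to 13.42 in wild type and 13.00 to 13.16 in the knockout (-0.15), Trim61 12.99 to 13.18 and 12.96 to 13.16 (-0.01), and Trim60 11.81 to 12.03 and 11.87 to 12.08 (0.09). The groups overlapped in each of the 3.

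The promoters of this trio are shown because they share a short motif that Nobox, a homeobox factor of oocytes, binds. The motif searched was TAATTG on either strand, in the 250 bases before and 50 after the start of each gene. It is marked in capitals below, as CAATTA where it lies on the opposite strand. The sequences are RefSeq's, on the gene's strand, assembly GRCm38.p6, and the table lists the same window for Trim60 and Trim61.
Trim75, chr8:64987595-64987894, minus strand: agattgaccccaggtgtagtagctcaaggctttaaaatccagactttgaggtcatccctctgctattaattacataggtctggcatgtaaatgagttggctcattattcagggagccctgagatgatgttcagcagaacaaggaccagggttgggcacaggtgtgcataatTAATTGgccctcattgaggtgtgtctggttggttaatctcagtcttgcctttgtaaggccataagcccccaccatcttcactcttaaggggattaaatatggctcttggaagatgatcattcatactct
Trim60 and Trim61, chr8:65018639-65018938, minus strand: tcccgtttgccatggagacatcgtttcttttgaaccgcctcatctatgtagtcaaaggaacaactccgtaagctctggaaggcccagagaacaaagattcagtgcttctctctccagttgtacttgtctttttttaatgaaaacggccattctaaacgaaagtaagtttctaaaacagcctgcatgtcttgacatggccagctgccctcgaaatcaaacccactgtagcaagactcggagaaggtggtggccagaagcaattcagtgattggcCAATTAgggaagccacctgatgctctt
This motif lies in 8.15% of the 27025 listed promoters, and of the 46 members with a listed promoter 7 do (Trim68, Trim6, Trim75, Trim60, Trim61, Trim37 and Trim31), with Trim60 and Trim61 counted from the same window. Among these 7, Trim37 passed. A match is a description of the letters and no evidence of binding.

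Members of the chromosome 7 run other than Trim6 shared a longer motif. The core of the interferon-stimulated response element, here a pair of GAAA repeats with any 2 bases between them, on either strand, lies in 3.49% of all promoters and in 8 of the 46 members' promoters, those of Trim21, Trim34a, Trim5, Trim12a, Trim12c, Trim30a, Trim30d and Trim26. Of the 8, Trim30a and Trim26 passed, where 21.0% of all genes did, and the other 6 did not, with differences between -0.20 for Trim30d and 0.13 for Trim12c. The windows of Trim30a and Trim26 are printed as examples, with the motif in capitals. In Trim26 a pair of matches overlap and make a longer run.
Trim30a, chr7:104465144-104465443, minus strand: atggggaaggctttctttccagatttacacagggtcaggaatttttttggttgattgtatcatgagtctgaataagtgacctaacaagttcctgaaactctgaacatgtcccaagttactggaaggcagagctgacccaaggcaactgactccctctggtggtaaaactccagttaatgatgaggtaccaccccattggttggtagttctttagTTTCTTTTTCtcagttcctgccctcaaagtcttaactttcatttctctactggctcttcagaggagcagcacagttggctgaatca
Trim26, chr17:36836896-36837195, plus strand: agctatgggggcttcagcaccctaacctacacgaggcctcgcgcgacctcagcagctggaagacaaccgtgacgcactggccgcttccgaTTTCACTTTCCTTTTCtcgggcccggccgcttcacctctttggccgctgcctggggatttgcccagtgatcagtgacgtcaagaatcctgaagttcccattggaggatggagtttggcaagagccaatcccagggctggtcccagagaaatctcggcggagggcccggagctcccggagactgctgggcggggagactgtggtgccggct
The E-box CACGTG lay in 2 member promoters, those of Trim25 and Trim39, against 7.24% of all promoters. The motifs were chosen after the values were seen.

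Several probe sets of a gene gave a check within the arrays. Of 109 member probe sets 20 passed, 15 higher and 5 lower, which is 18.3%, against 18.5% of all probe sets with 1 symbol. Trim30a rose in both probe sets, by 1.33 and by 1.74, and Trim26 rose in both, by 0.44 and 0.33. Trim59 fell in both, by 0.72 and by 0.65. Trim37 rose in 4 of 5 probe sets, by 0.91, 1.09, 1.12 and 0.49, and the dimmest read 0.05. In each of the 4 that passed, knockout array 2 was the highest. Trim23 rose in 2 of 3, by 0.89 and 0.78, and its dimmest, with means of 3.53 and 3.66, read 0.14.

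The probe sets of 3 other members did not give a single answer. Trim2 rose in only 1 of 6, the brightest. The next brightest read 0.82 (limma adjusted p = 0.0502), and the other 4 read 0.02 to 0.32. Knockout array 3 was the highest knockout array in all 6. Trim36 rose by 0.36 in the brighter probe set, and the other read -0.32 (limma adjusted p = 0.107), with 8.90, 8.82, 8.84 and 8.82 in wild type against 8.75, 8.35, 8.24 and 8.74 in the knockout. For Trim36 the mean of both probe sets gave no call. Trim17 passed only in its dimmer probe set, which went from 4.79 to 5.21 (0.42, limma adjusted p = 0.0151), while the brighter read 0.08. Trim15 and Trim45 each have a single probe set, of a type whose probes can match other transcripts. The probe set in which Trim2 passed is of the same type. The difference of Trim2 was 0.82 without such probe sets (limma adjusted p = 0.0494) and 0.43 as the mean of its probe sets (adjusted p = 0.0462). The brightest probe set of Trim37 and the dimmer one of Trim59 are of this type too. Without such probe sets Trim37 differed by 1.09 (limma adjusted p = 0.0237).

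**Figure D3:**
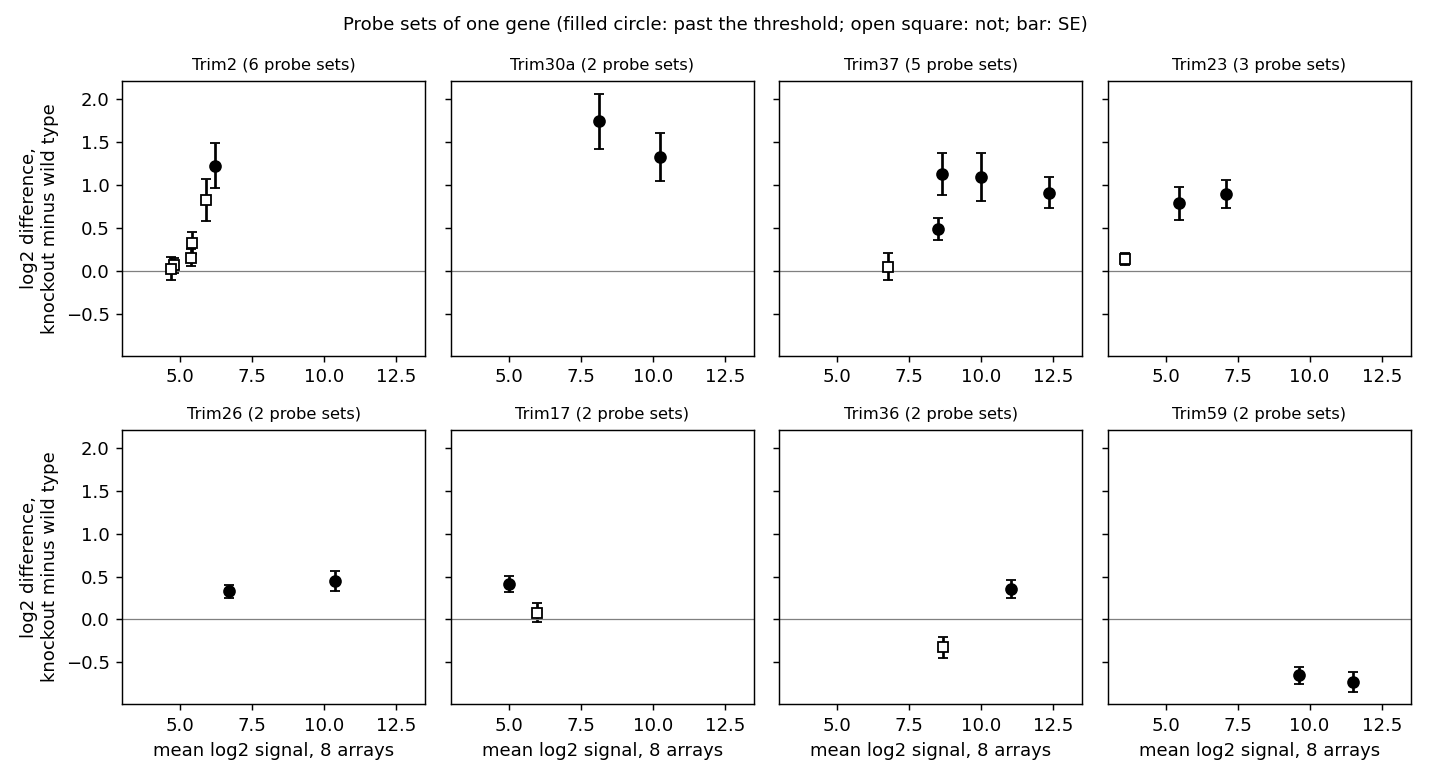
Log2 difference (knockout minus wild type, bar: SE of limma) of each probe set against its mean log2 signal over 8 arrays, for 8 TRIM genes with several probe sets of which at least 1 passed (filled circles). Trim30a, Trim26 and Trim59 passed in both probe sets, Trim2 only in its brightest, and the probe sets of Trim36 lie on opposite sides of 0.

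Position in the genome grouped many members. Taking members no more than 5 genes apart, 21 of the 57 lay in 6 runs. The largest, on chromosome 7, holds Trim6, Trim34a, Trim5, Trim12a, Trim12c, Trim30a and Trim30d, and only Trim30a passed there. The neighbour and close relative of Trim30a, Trim30d, read 6.21, 7.47, 6.54 and 5.04 in wild type against 5.12, 7.03, 6.27 and 6.06 in the knockout, so its groups overlapped widely (difference -0.20, limma adjusted p = 0.847). Relatives such as these share sequence, so probes of Trim30a may also take up RNA of its copies. In the run on chromosome 17, Trim26 and Trim40 rose, Trim15 fell, and Trim10 (0.23) and Trim31 (-0.29) did not pass. The trio on chromosome 8 and the 3 pairs on chromosome 11 (Trim41 with Trim7, Trim17 with Trim11, Trim47 with Trim65) gave 0 calls in limma, and of these 9 genes Trim65 alone had an unadjusted p under 0.05.

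The 4 members with the widest spread between mice of a group lie on chromosome 7. The SD within groups was 1.31 for Trim6, which is the 99.8th percentile of all genes, and 0.901 for Trim30d, 0.484 for Trim68 and 0.483 for Trim30a. The other members on that chromosome varied less, and Trim12a, at 0.0525, had the smallest SD of the family. The median over members was 0.139, against 0.146 over all genes. Trim6 read 5.36, 6.88, 5.88 and 5.92 in wild type against 5.84, 4.96, 4.54 and 8.42 in the knockout. Knockout array 4 stood far above the rest, and the other probe set of Trim6 was dim, with means of 4.68 and 4.73. Trim68 read 8.95, 9.84, 9.18 and 8.81 in wild type against 8.17, 9.10, 8.05 and 8.84 in the knockout, the largest difference without a call (-0.65, limma adjusted p = 0.153). Array 2 of each group was its highest in Trim68 and in Trim30d.

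**Figure D4:**
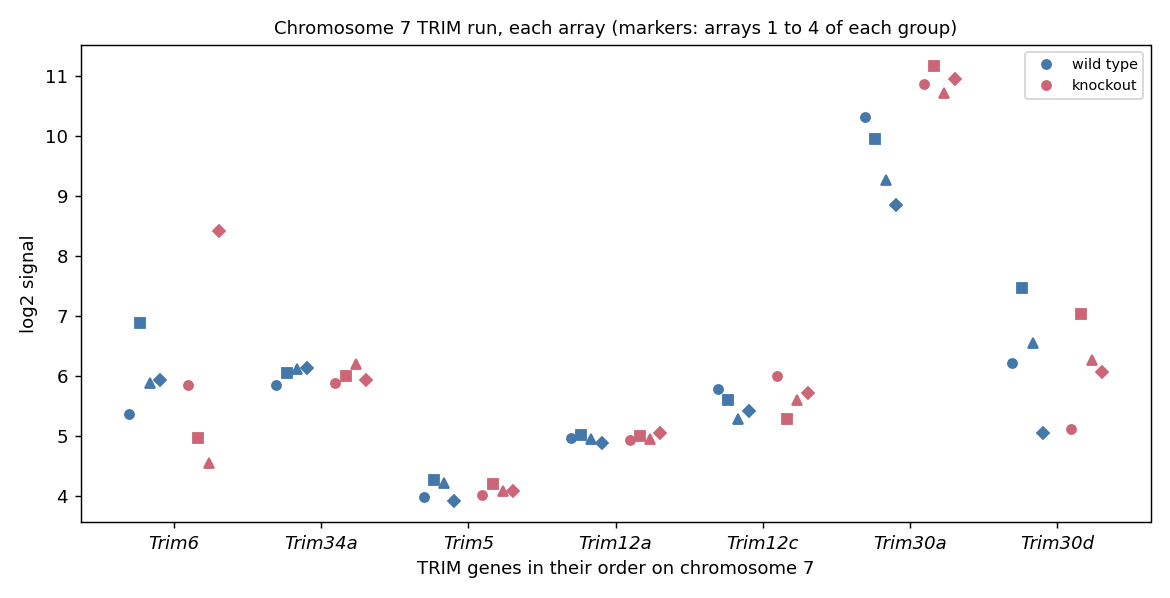
Log2 signal of the 7 TRIM genes of the chromosome 7 run on each wild-type (blue) and knockout (red) array, in gene order, with marker shapes for arrays 1 (circle), 2 (square), 3 (triangle) and 4 (diamond) of a group. Trim30a is the only gene whose groups are apart. Trim6 and Trim30d spread over several log2 units within a group, from 4.54 to 8.42 and from 5.04 to 7.47.

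Of the 45 members without a call, 21 had a positive and 24 a negative difference, and 34 lay within 0.2 of 0. They ranged from -0.65 for Trim68 to 0.39 for Trim66, and the lowest limma adjusted p among them was 0.0787, for Trim14 (0.29). Trim14, a mitochondrial adaptor in antiviral signalling, read 5.01, 4.77, 5.19 and 4.91 in wild type against 5.21, 5.26, 5.36 and 5.20 in the knockout, apart but only just. Trim65 read 6.75 to 6.81 in wild type and 6.86 to 7.14 in the knockout (0.22). Trim25, the ligase that activates RIG-I, read 6.83, 6.53, 6.59 and 7.38 in wild type against 6.57, 6.11, 6.34 and 6.69 in the knockout, a difference of -0.41 (limma adjusted p = 0.202) in which wild-type array 4 stood high. Trim21, the cytosolic antibody receptor, differed by 0.05. Among the muscle ligases, Trim63 was dim, with 3.87 to 4.66 in wild type and 3.89 to 4.17 in the knockout.

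Genes that work with TRIM proteins moved in both directions. Of 18 partners of Trim28 in silencing, 4 rose and 2 fell (median difference -0.02). Pphln1, a subunit of the HUSH silencing complex, rose from 10.32 ± 0.491 (SD, n = 4) to 12.57 ± 0.147 (n = 4), 4.74-fold (limma adjusted p = 0.000138), and Tasor, another HUSH subunit, rose by 0.98. Zfp568 and Zfp57, KRAB zinc finger genes whose products bring Trim28 to DNA, fell by 0.56 and 0.44. Zfp809, another gene of this kind, rose by 0.93 (limma adjusted p = 0.0263). Setdb1, the histone methyltransferase of the complex, read -0.30 (limma adjusted p = 0.0862). Of 13 ubiquitin-activating and ubiquitin-conjugating enzymes used by TRIM ligases 4 rose and 1 fell (median 0.10). Ube2v1, the partner of Ube2n in making chains linked through lysine, rose from 10.20 to 11.86, 3.16-fold (limma adjusted p = 1.37e-05), Ube2e2 rose by 0.95, and Ube2e3 fell by 0.58.

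Most antiviral signalling genes that TRIM ligases act on did not pass. Of 15 measured 5 fell and 1 rose (median -0.02). Ddx58, which encodes the RNA sensor RIG-I, fell by 0.93 (limma adjusted p = 0.000579), Tab2, a signalling adaptor that Trim30a is known to act on, fell by 0.48, and Cgas, the DNA sensor, rose by 0.45. In the Smad pathway, which Trim33 joins, 2 of 16 rose and 4 fell (median -0.11): the receptor gene Bmpr2 rose by 0.51 and Smad4 by 0.30, and the receptor genes Acvr2b and Acvr1 fell by 0.62 and 0.84. Of 5 TRIM proteins that carry other symbols, Pml, the organiser of nuclear bodies, fell from 8.63 ± 0.137 (SD, n = 4) to 7.82 ± 0.170 (n = 4), a difference of -0.81 (limma adjusted p = 0.000789), and the other 4 did not pass. Over all genes 8.18% rose and 12.8% fell, so no list is called particular from these counts.

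**Figure D5:**
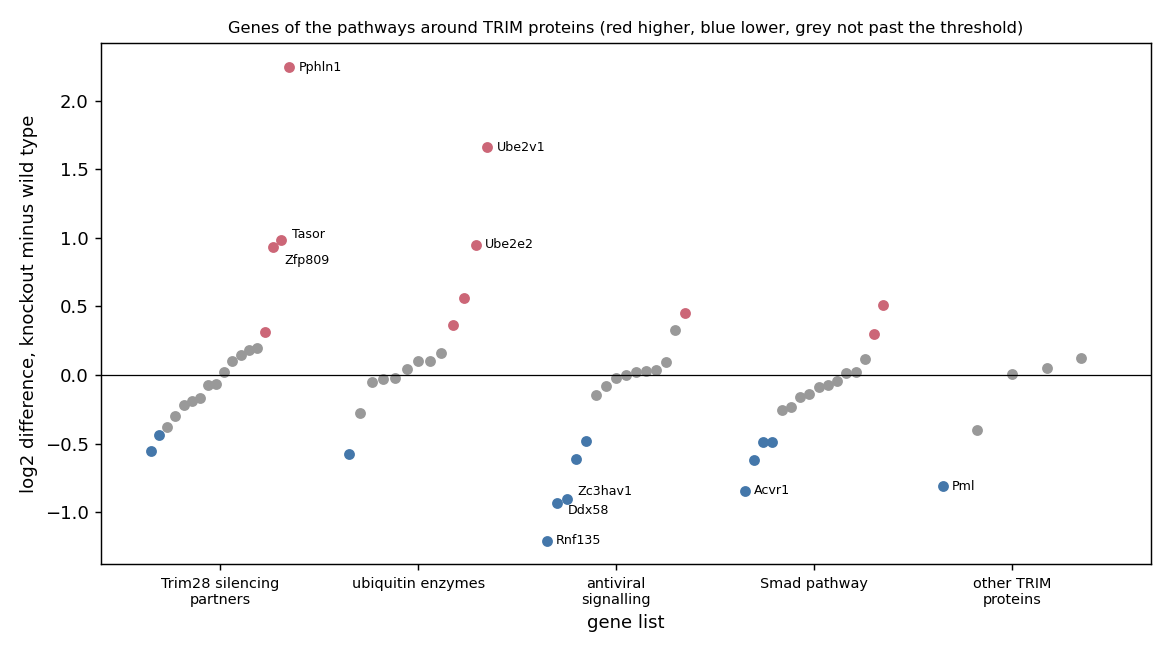
Log2 difference (knockout minus wild type) of genes from 5 lists around the TRIM family, 1 point per gene and sorted within each list. Red points rose, blue points fell and grey points did not pass the threshold. Pphln1 and Ube2v1 are the highest points, and the antiviral list holds 5 blue points and 1 red.

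The genes whose signals ran most like those of Trim59 over the 8 arrays were Sec63, Matr3 and Fchsd2, with Pearson correlations of 0.992, 0.989 and 0.989 among 18134 genes outside the family. Each of the 3 was lower in the knockout, by 0.59, 0.27 and 0.27, and the group difference is part of what the correlation reflects. Within the 4 knockout arrays alone, which share no group difference, the correlations were 0.997, 0.986 and 0.974, and within wild type 0.850, 0.923 and 0.838. Trim59 itself read 10.80 on knockout array 2 against 11.22 to 11.26 on the others, so that array weighs heavily in the knockout correlations. Sec63, Matr3 and Fchsd2 were picked as the extreme of many over the same arrays, so the values are a description.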

How the data were processed

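The files hold 8 Affymetrix mouse genome arrays (MOE430 v2), grouped by the genotype label. Per the labels' protocols, the RNA was isolated with the PicoPure kit and amplified linearly in 2 rounds. The authors deposited log2 signals for each probe set. Of tools, the submitters' processing notes name RMA (background correction, normalisation between arrays and a summary over probes) and Partek, and their versions are not given in the sources used here. Because RMA compresses low signals, differences of dim genes may understate those of the RNA, which was not tested here. No detection calls were used.

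Of 45101 probe sets 64 are controls and 45037 were tested. The platform annotation gives 34945 of them 1 symbol, 932 several and 9160 none listed there. Knockout minus wild-type differences were computed in R 4.3.3 by limma 3.58.1, using lmFit and eBayes at their defaults and no covariate. Benjamini-Hochberg adjustment ran over all 45037, and adjusted p under 0.05 counted as passing. Every adjusted p is limma's, and errors are SDs over 4 arrays or moderated SEs. Exact two-sided permutation tests of single values used 70 arrangements. The fit was tested on simulated data. All 57 members were found in RefSeq's list of genes (assembly GRCm38.p6), which served for names, chromosomes and gene order, and the printed coordinates are those of RefSeq's promoter table of that assembly.

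Every member that passed is named. Those 12 and Trim24, Trim28 and Trim33 are given on every array, and the 4 brightest others by range. In each pathway list up to 2 genes with the lowest p in each direction are named. Setdb1, Zfp809, Smc4, Kpna4, Dleu2, Spryd7, Ppm1e, Ska2, Rad51c, Prr11, Smg8, Trim6, Trim10, Trim12a, Trim14, Trim21, Trim25, Trim30d, Trim31, Trim60, Trim63, Trim65, Trim66 and Trim68 were named after their values were seen. The members and lists were chosen with earlier results of these data known. Alternatives covered dim probe sets left out, 3 scalings (quantile, median, cyclic loess), another variance model, array weights and the title number as a random or fixed block. They also covered averaging a gene's probe sets, dropping probe sets with suffixes for shared sequence, a 1.5-fold minimum, and leaving out each array.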

Additional observations from a re-analysis of the deposited data

Results flagged for a closer look

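In 5 genes a single array lay far from the other 3 of its group, judged by its gap to the nearest of them over the group's range. Among 114 groups checked, chance gives about 5.7 such cases, so the number itself is no more than chance gives. Of genes that passed, Trim59 read 10.80 on knockout array 2 against 11.22 to 11.26 on the others, and Trim56 read 7.24 on wild-type array 3 against 7.38 to 7.40. Trim9 read 7.67 on knockout array 2 against 7.40 to 7.42, Trim62 read 7.94 on knockout array 3 against 7.79 to 7.81, and Trim72 read 4.72 on knockout array 4 against 4.88 to 4.90.

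A probe set that the platform annotation lists for both Trim30d and Trim30a, and that the counts of members leave out, was higher in the knockout. It read 7.35, 6.74, 6.52 and 6.32 in wild type against 7.78, 8.20, 7.26 and 7.86 in the knockout, with wild-type array 1 above the lowest knockout array. The difference was 1.04 ± 0.242 (SE, limma adjusted p = 0.0172).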

How the results depend on the processing

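The 8 rises became 5 with each array centred on its median, 2 with the title number as a fixed block and 4 at 1.5-fold or more, and lay between 4 and 7 when a single array was left out. The 4 falls became 1 with the fixed block, 2 without probe sets that can share sequence (Trim15 and Trim45 have no other) and 1 at 1.5-fold or more, and lay between 3 and 4 when a single array was left out. The other alternatives kept both counts within 1.5 times, and the median over members stayed between -0.02 and 0.05. Trim30a, Trim37 and Trim59 kept their calls under every alternative run, and Trim2, Trim13, Trim15 and Trim23 under every omission of 1 array. Trim10, Trim14, Trim31 and Trim65 passed in 1 omission each. No called member changed sign. Their groups did not overlap, so leaving out or weighting arrays could not have changed a sign. The title number as a random block changed no call, with a consensus correlation of -0.0778. The causes were not tested. Without detection calls, signal over background is unknown for dim members such as Trim2.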
